A study of Arabidopsis thaliana with 8 samples.

Results

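The plastid genome of *Arabidopsis thaliana* carries genes for subunits of the photosynthetic complexes, and these are described here. They were chosen by name: genes with a plastid locus tag whose symbol is *psa*, *psb*, *pet*, *atp* or *ndh* followed by a capital letter, and *rbcL*. The array names 44 of the 44 such symbols in the RefSeq gene table, out of 13293 genes with a named probe set. They comprise 5 genes of photosystem I, 15 of photosystem II, 6 of the cytochrome b6f complex, 6 of the ATP synthase, 11 of the NADH dehydrogenase-like (NDH) complex, and *rbcL*. Every member has 1 probe set, and all 44 passed the filter on low intensities. The *ndhB* probe set is listed for both copies of the gene in the inverted repeat, which cannot be told apart.

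The samples were whole rosettes, 5 to 6 weeks old, of the *pgm* mutant in the Col-0 background, and all 8 arrays carry this genotype. The mutant lacks plastidial phosphoglucomutase and is known for leaves almost free of starch. It is 1 mutant line, a wild type is not analysed here, and no probe set is named for the mutated gene. Each sample pooled 15 rosettes from 5 harvests of 3 rosettes. The labels give 6 hours, in the order 00h, 04h, 08h, 12h, 16h and 20h, while the series' design text speaks of 8 times. There are 2 arrays for 12h and for 00h, carrying the letters B and A, and 1 array with the letter A for each of the 4 remaining hours. The labels do not tell when the lights were on or whether B and A are separate plant material. The p-values therefore reflect the spread among these arrays alone, and that spread may be technical.

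Plastid genes are read by a plastid-encoded RNA polymerase, which needs nuclear-encoded sigma factors, and by nuclear-encoded phage-type polymerases. Many lie in shared transcription units whose long transcripts are cut into smaller RNAs, and transcript stability is known to set much of their level. Mature plastid mRNAs mostly lack long poly(A) tails. How the labelled cRNA was primed is not given in the sources used here. The complexes they encode split water, carry electrons through the thylakoid membrane, make ATP and fix carbon, each together with nuclear-encoded subunits.

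The values are linear array intensities, as deposited by the authors, and their mean without the lowest and highest 2% is 100 on every array. Differences are in log2 units of intensity + 16, given with their standard error (SE), and this scale understates the change of dim genes. A gene was called changed at a limma p below 0.05 after Benjamini-Hochberg adjustment over all 13647 probe sets tested. The spike-in hybridisation controls, transcripts added to every sample before hybridisation, split the arrays: their mean intensity was 390.9 on 00h A and 401.1 on 12h A, and between 109.3 and 134.1 on the other 6 arrays. The 2 arrays with high controls are thus the A arrays of the hours that also have a B array. The 25S ribosomal RNA control probe set differed between the letters as well, with 65.8 on 12h B, against 869.3 on 12h A, and 256.3 on 00h B, against 2995.5 on 00h A. It lay between 243.2 and 496.9 on the other 4 arrays. At 12h and 00h high hybridisation controls coincide with the letter A, so their parts in the differences between B and A cannot be told apart. The part of the 25S ribosomal RNA level in those differences was not tested. Of the leaf mesophyll markers listed, only *RCA*, the gene of Rubisco activase, is named on the array, with 2299.9 on 12h B, against 2897.6 on 12h A, and 2976.3 on 00h B, against 6704.5 on 00h A. The phloem marker *SWEET11*, of a sucrose transporter, was likewise lower in B, with 554.7 on 12h B, against 826.2 on 12h A, and 722.5 on 00h B, against 1244.3 on 00h A. The guard cell marker *FMA*, the root marker *PYK10* and the touch marker *STZ* each lay above A in B at 1 hour and below it at the other. The part of these cell types in the differences between B and A was not tested.

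Arrays B and A of the same hour differed in some of these genes. Of the 44 members, 9 were lower and 2 were higher in B than in A, the letter being fitted beside the hour, while 1.1% of all probe sets tested were called. In single directions, 0.791% of all probe sets were called lower and 0.308% higher. The median over the members was -0.33, against 0.02 over all probe sets tested, and the median size without sign was 0.56, against 0.20. The fit has 1 residual degree of freedom for each probe set, beside 13.6 prior degrees of freedom that limma takes from all probe sets. The SE and p of a gene therefore rest mostly on the spread of other probe sets, not on its own 2 differences. In whole rosettes, fewer cells of a type and less RNA in each cell cannot be told apart.

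**Figure D1:**
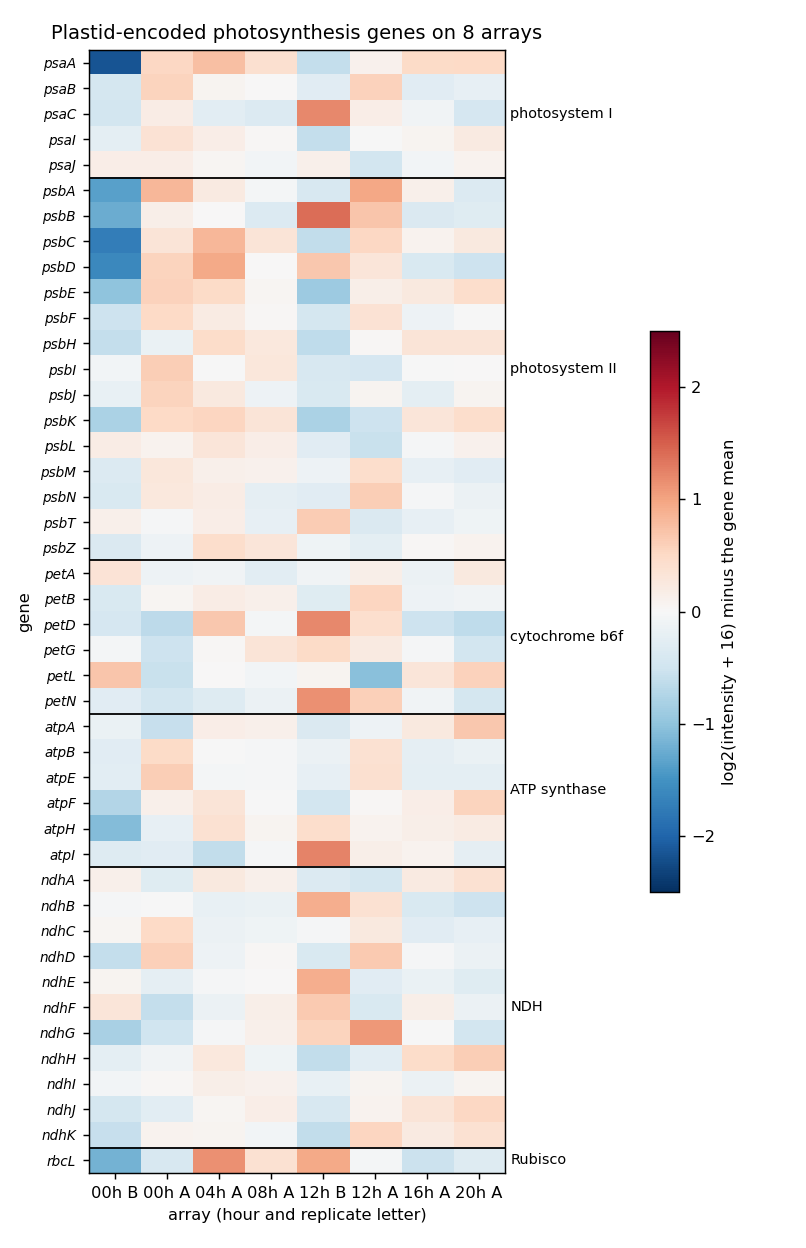
Each row is a gene and each column an array, B left of A at 00h and 12h. The colour is the log2(intensity + 16) of the gene minus its mean over the 8 arrays. The 00h B column is the bluest: it is the lowest array for 22 of the 44 genes.

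Of the 9 genes lower in B, 4 belong to photosystem II, 2 to photosystem I, 2 to NDH and 1 to the ATP synthase. The *psbA* gene, which codes for the D1 protein of the photosystem II reaction centre, had 497.3 on 12h B, against 1301.5 on 12h A, and 249.3 on 00h B, against 1183.6 on 00h A. The arrays of the other hours gave 773.5 at 04h, 634.9 at 08h, 727.1 at 16h and 521.6 at 20h. Both B arrays thus lay below all 6 A arrays, with 12h B close under 20h. The difference B minus A was -1.36 at 12h and -2.18 at 00h, and -1.77 ± 0.203 (SE) in the fit (adjusted p = 0.00224).

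The gene *psbC* codes for an inner antenna protein that binds chlorophyll next to the photosystem II reaction centre. Its intensity was 600.7 on 12h B, against 1338.2 on 12h A, and 269.1 on 00h B, against 1167.3 on 00h A. It lay between 980.1 and 1658.3 at the other hours, so both B arrays were again the lowest. The difference was -1.59 ± 0.208 (adjusted p = 0.00283). The gene *psbE*, of a cytochrome b559 subunit of photosystem II, also had both B arrays lowest, with 407.2 on 12h B, against 855.3 on 12h A, and 376.4 on 00h B, against 1158.8 on 00h A. Its difference was -1.31 ± 0.185 (adjusted p = 0.00535). Its partner *psbF*, of the other cytochrome b559 subunit, was also called, at -0.91 ± 0.167 (adjusted p = 0.019).

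In photosystem I, *psaA* and *psaB* code for the pair of large proteins that hold the reaction centre, and both were lower in B. The *psaA* intensity was 1086.0 on 12h B, against 1774.5 on 12h A, and 360.0 on 00h B, against 2375.1 on 00h A. The other arrays gave 2801.2 at 04h, 2188.8 at 08h, 2304.1 at 16h and 2347.1 at 20h. Both B arrays were below all others, and 00h B stood far below 12h B. The 2 hours differed in size, with -0.70 at 12h and -2.67 at 00h, around a fitted -1.68 ± 0.306 (adjusted p = 0.0182). For *psaB*, with 3622.4 on 12h B, against 6596.1 on 12h A, and 3246.3 on 00h B, against 6538.5 on 00h A, the fitted difference was -0.93 ± 0.16 (adjusted p = 0.0126). The arrays of 16h and 20h, at 3612.3 and 3813.8, lay among or close to the *psaB* values of the B arrays.

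Outside the photosystems, 3 genes were lower in B. They were *ndhD* (-1.11 ± 0.17, adjusted p = 0.00707) and *ndhK* (-0.91 ± 0.197, adjusted p = 0.042) of the NDH complex, which passes electrons back to plastoquinone. The other was *atpE*, of the epsilon subunit of the ATP synthase (-0.75 ± 0.163, adjusted p = 0.042). Its arrays of 16h and 20h, at 3657.6 and 3664.6, lay between 00h B at 3604.5 and 12h B at 3734.2. Its highest arrays were 00h A at 6670.7 and 12h A at 5720.1, those with high hybridisation controls. With quantile normalization between arrays the *atpE* difference became 0.08 ± 0.102 (adjusted p = 0.798) and that of *psaB* -0.10 ± 0.101 (adjusted p = 0.721), and neither was called. Under the same normalization *psbA* stayed at -1.68, *psaA* at -1.55, *psbC* at -1.51 and *psbE* at -1.26, all called, as were 7 members in all and 0.381% of all probe sets.

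The 2 genes called higher in B belong to other complexes. The *petL* gene, of a small cytochrome b6f subunit, had 532.6 on 12h B, against 240.6 on 12h A, and 840.7 on 00h B, against 342.1 on 00h A. Between 487.4 and 772.6 were read at the other hours, so 00h B was the highest array and both arrays with high hybridisation controls were the lowest. The difference was 1.18 ± 0.177 (adjusted p = 0.00638). For *ndhF*, a dim gene of an NDH membrane subunit, the intensities were 67.0 on 12h B, against 24.4 on 12h A, and 48.7 on 00h B, against 18.7 on 00h A, a difference of 0.97 ± 0.215 (adjusted p = 0.0443). The other *ndhF* arrays ran from 31.1 at 04h up to 42.3 at 08h, below both B arrays and above both A arrays of 12h and 00h. Next in size, and not called, were *ndhE* of the NDH complex at 0.74 ± 0.217 (adjusted p = 0.127) and *psbT*, of a small photosystem II subunit, at 0.57 ± 0.218 (adjusted p = 0.235).

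**Figure D2:**
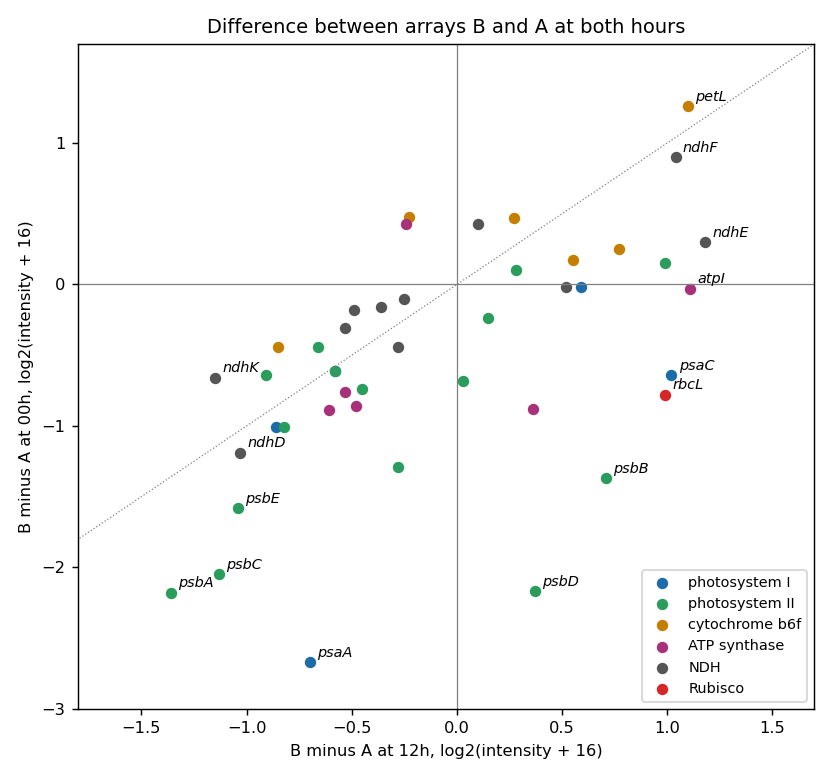
Each point is a gene, with B minus A at 12h on the horizontal axis and at 00h on the vertical axis, both in log2 units, coloured by complex; the dotted line marks equal differences. Points at the lower left are lower in B at both hours, among them *psbA* at -1.36 and -2.18, while *petL* and *ndhF* stand at the upper right.

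By complex, B was lower in 2 of 5 photosystem I genes, 4 of 15 photosystem II genes, 1 of 6 ATP synthase genes and 2 of 11 NDH genes, and higher in 1 of 6 cytochrome b6f genes and 1 of 11 NDH genes. The *rbcL* gene was not called. The median difference was -0.59 in photosystem I, -0.60 in photosystem II, -0.45 in the ATP synthase and -0.26 in NDH. It was 0.37 in the cytochrome b6f genes, where 5 of 6 values were above 0 and only *petB*, of cytochrome b6, was below 0. The *petB* intensity was 2579.3 on 12h B, against 4658.8 on 12h A, and 2443.9 on 00h B, against 3328.2 on 00h A, a difference of -0.65 ± 0.169 that was not called (adjusted p = 0.0868). Differences between the complexes themselves were not tested.

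Both B arrays lay below all 6 A arrays for 14 of the 44 members, against 2.75% of all probe sets tested. These were *psaA*, *psaI*, *psbA*, *psbC*, *psbE*, *psbF*, *psbH*, *psbK*, *psbN*, *petB*, *atpF*, *ndhD*, *ndhJ* and *ndhK*. This definition includes the 4 arrays of other hours, whose hybridisation controls were as low as on the B arrays. The part of the hybridisation controls in it was not tested. Both B arrays lay above all A arrays for *ndhE* and *ndhF*, against 1.65%. A member was lower in B at both hours in 23 of 44 cases (28.8% of all probe sets) and higher at both hours in 9 (30.6%). The 5 genes *psbA*, *psbC*, *psbE*, *ndhD* and *petL* differed in one direction by at least 1 log2 unit at both hours, against 0.169% of all probe sets. Across the 44 genes the difference at 12h correlated with that at 00h at a Pearson r of 0.545, beside 0.297 across all 13647 probe sets and 0.723 across the 32 other named plastid genes. These are correlations across genes, which share arrays, scaling and, in places, transcripts.

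Genes of the same transcription unit did not always share the direction. In the unit of *psbD*, *psbC* and *psbZ*, all 3 differences were below 0. The *psbD* gene, of the D2 protein of the reaction centre, had 360.1 on 12h B, against 274.7 on 12h A, and 61.0 on 00h B, against 331.7 on 00h A. Its intensity on 00h B was thus the lowest of its 8 arrays, while at 12h B lay above A, and the difference was not called (-0.90 ± 0.383, adjusted p = 0.286). In the unit of *psbE*, *psbF*, *psbL* and *psbJ*, 3 genes were below 0, 2 of them called, and *psbL* was at 0.19. In the unit of *petL*, *petG* and *psaJ* all 3 were above 0, with only *petL* called. In the unit of *psbB*, *psbT*, *psbH*, *petB* and *petD*, 3 were below 0, 2 above 0 and none was called. All values were below 0 in the units *psaA*-*psaB*, *ndhC*-*ndhK*-*ndhJ*, *atpB*-*atpE* and *psbK*-*psbI*. The unit of *atpI*, *atpH*, *atpF* and *atpA* had 2 above 0 and 2 below. That running from *ndhH* to *ndhD* had 3 above 0 and 4 below.

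Intensity itself moved with the letter. Among probe sets that are not plastid-encoded and average 2000 or more, 40 of 156 were called lower in B, with a median of -0.53, beside 2 of 6 members, with a median of -0.65. Between 1000 and 2000 the counts were 4 of 13 members, with a median of -0.55, and 15 of 373 of the others, with a median of -0.20. Between 300 and 1000 they were 2 of 11 members, with a median of -0.26, and 17 of 1800 of the others, with a median of -0.03. Of all members, 26 of 44 are among the 10% of probe sets with the highest mean. The highest intensity on an array was 9885.2 on 00h A and 10606.5 on 12h A, and 4179.2 to 5855.4 on the other 6. The part of intensity in the members' differences was not tested beyond these values.

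**Figure D3:**
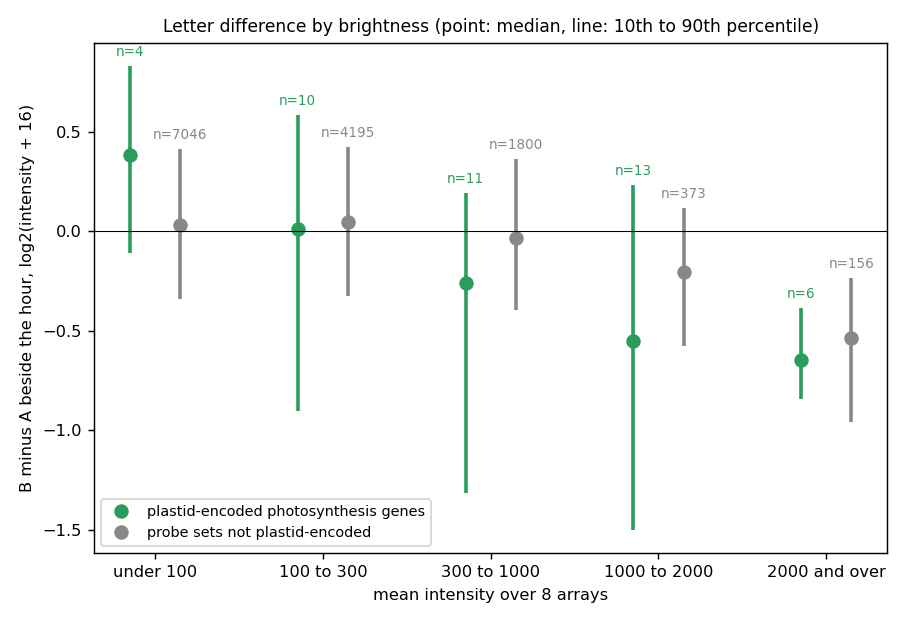
The vertical axis is B minus A in log2 units, and the horizontal axis is the mean intensity over the 8 arrays in 5 ranges. Points are medians and lines run between the 10th and 90th percentiles; green marks the plastid-encoded photosynthesis genes and grey the probe sets that are not plastid-encoded. At 2000 and over the medians are -0.65 and -0.53, and at 1000 to 2000 they are -0.55 and -0.20.

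The 11 calls on the letter depended on the model. None was left without the filter on low intensities (0 of 22746 probe sets in all). The same held with the cosine and sine of the hour in place of the hour as a factor. In those settings 21 and 20 members had an unadjusted limma p under 0.05, and the share of all probe sets at that threshold is not given. Leaving out the lowest 60% of probe sets gave 20 members, against 5.18% of all.

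With the letter left out of the fit, differences by hour were called in few of these genes. The steps and the rhythm below leave it out too. At 12h, 7 of the 44 members were higher than at 00h and none was lower, while 40.5% of all probe sets tested were called, 21.9% higher and 18.6% lower. The median change over the members was 0.13, against 0.06 over all, and the median size without sign was 0.32, against 0.53. The 7 genes were *psbB*, *ndhG*, *petD*, *rbcL*, *petN*, *atpI* and *atpH*. With the letter as a block, 16 members were called, 13 higher and 3 lower. Added to the 7 were *ndhB*, *petG*, *psaC*, *psbA*, *psbC* and *psbD*, higher at 12h, and *petL*, *psbI* and *psbL*, lower. The share of all probe sets called with that block was not computed, so the 16 cannot be set against the 40.5%. With every array scaled to the same median, which put the median change of all probe sets at -0.104 instead of 0.057, 5 members were called higher and 2 (*psbI* and *psbL*) lower, and *atpI* and *atpH* were no longer called.

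The cytochrome b6f complex links both photosystems, and 2 of its 6 genes were higher at 12h, a count to be read against the 21.9% of all probe sets called higher. The *petD* gene, of subunit IV, had 178.4 and 97.9 on the B and A arrays of 12h, against 47.7 and 37.7 at 00h. Both 12h arrays lay above both 00h arrays, with a change of 1.35 ± 0.287 (adjusted p = 0.00392), made of 1.61 within the B arrays and 1.08 within the A arrays. The *petN* gene, of a small subunit, had 557.7 and 376.2 at 12h on B and A, against 198.5 and 174.2 at 00h. All other *petN* arrays lay between 174.7 and 227.7, so the 2 arrays of 12h stood apart, and the change was 1.23 ± 0.237 (adjusted p = 0.0022). The lowest change of the complex was that of *petL* at -0.56 ± 0.425 (adjusted p = 0.324).

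In the NDH complex only *ndhG*, of a membrane subunit, was called. Its intensity was 318.0 and 466.9 at 12h on B and A, against 113.7 and 145.1 at 00h. At 04h, 08h, 16h and 20h it was 206.7, 230.7, 209.4 and 148.7, all below 12h and all above 00h. The change was 1.47 ± 0.242 (adjusted p = 0.000878), with 1.36 within B and 1.58 within A. The lowest of the complex was *ndhA* at -0.31 ± 0.259 (adjusted p = 0.379). The gene *ndhB* had 128.8 and 84.8 on the B and A arrays of 12h, against 60.1 and 60.9 at 00h. Its groups did not overlap, and its change of 0.66 ± 0.253 was not called (adjusted p = 0.0608).

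**Figure D4:**
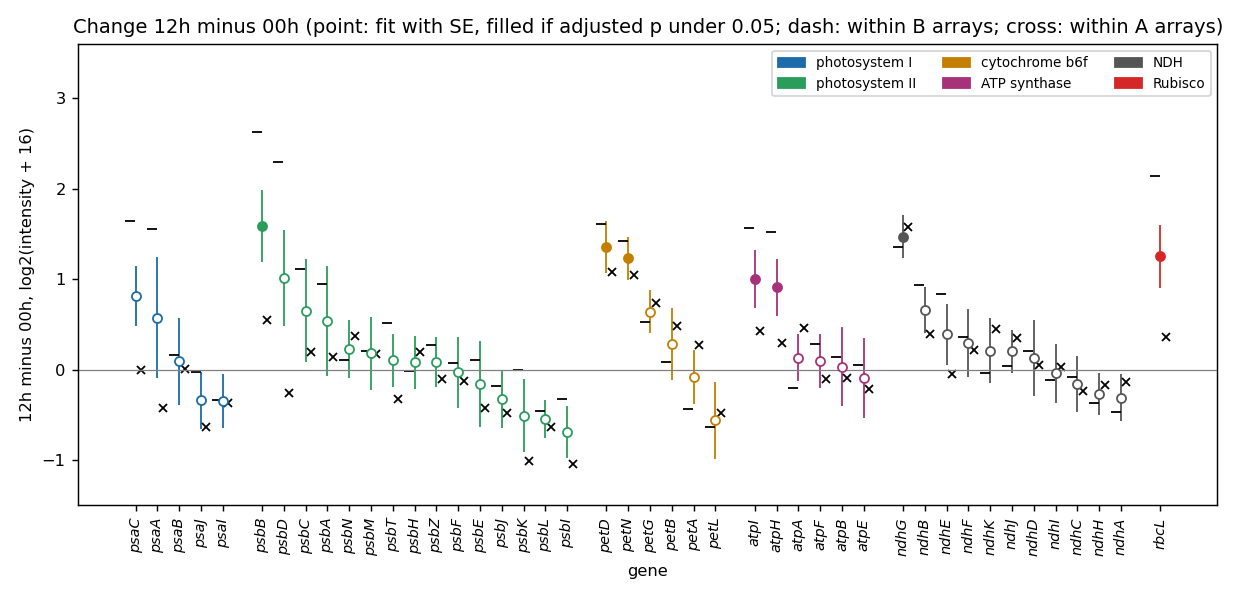
The vertical axis is 12h minus 00h in log2 units and each position is a gene, grouped by complex. Points are fitted changes with SE bars, filled where the adjusted p is below 0.05; dashes give the change within the B arrays and crosses that within the A arrays. For *ndhG* both lie near the fit (1.36 and 1.58), while for *psbB* they are 2.63 and 0.55.

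For the other 4 genes the B arrays carried most of the change. The *psbB* gene codes for the second inner antenna protein of photosystem II, and had 676.2 on 12h B and 408.0 on 12h A, against 95.5 on 00h B and 273.1 on 00h A. The 12h arrays were the highest of the 8 and 00h B was by far the lowest, for a change of 1.59 ± 0.396 (adjusted p = 0.00909) made of 2.63 within B and 0.55 within A. The *rbcL* gene, of the large subunit of Rubisco, had 706.8 on 12h B and 347.0 on 12h A, against 147.8 on 00h B and 266.0 on 00h A, and changed by 1.25 ± 0.346 (adjusted p = 0.0152), with 2.14 within B and 0.36 within A.

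The proton channel of the ATP synthase is built from the products of *atpI* and *atpH*, and both genes passed the threshold closely. The *atpI* gene had 342.4 on 12h B and 150.3 on 12h A, against 104.9 on 00h B and 107.6 on 00h A (1.0 ± 0.321, adjusted p = 0.0305). The *atpH* gene had 1206.8 on 12h B and 939.1 on 12h A, against 409.6 on 00h B and 765.5 on 00h A (0.91 ± 0.313, adjusted p = 0.0407). In both the 12h arrays lay above those of 00h. Without 12h B, *atpI*, *atpH* and *rbcL* were no longer called, and without 00h B *atpH* was no longer called. Without the filter on low intensities, 3 of the 7 genes were called (*petD*, *petN* and *ndhG*), against 19.3% of 22746 probe sets.

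Among the core genes that were not called, the *psaA* change was 0.57 ± 0.669 (adjusted p = 0.537), with 1.55 within B and -0.42 within A. That of *psbA* was 0.54 ± 0.609 (adjusted p = 0.514). For *atpB*, of the catalytic beta subunit of the ATP synthase, 4201.3 and 6072.6 were read on the B and A arrays of 12h, against 3809.3 and 6465.0 at 00h. The *atpB* groups overlapped fully, with a change of 0.03 ± 0.436 (adjusted p = 0.97). The largest photosystem I change was that of *psaC*, of the iron-sulfur subunit, at 0.81 ± 0.334 (adjusted p = 0.076), and the smallest that of *psaI*, of a small membrane subunit, at -0.35 ± 0.296 (adjusted p = 0.376). The lowest change of all 44 was that of *psbI*, of a small photosystem II subunit, with 911.2 and 889.4 on the B and A arrays of 12h, against 1150.9 and 1857.4 at 00h (-0.69 ± 0.292, adjusted p = 0.0844). In the ATP synthase the smallest was *atpE*, at -0.09 ± 0.444 (adjusted p = 0.899).

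Whole groups of 12h arrays lay above those of 00h for 9 members, against 38.1% of all probe sets, and below them for 5, against 32.9%. The 9 were the 7 called genes with *petG* and *ndhB*, and the 5 were *psaJ*, *psbI*, *psbL*, *ndhA* and *ndhH*. The change within B and the change within A had opposite signs in 17 of 44 members, and in 2362 of the 13647 probe sets tested. Across the 44 genes those changes correlated at a Pearson r of 0.455, beside 0.903 across all 13647 probe sets.

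Seen by transcription unit, the genes called at 12h had neighbours that were not called. All 5 values of *psbB*, *psbT*, *psbH*, *petB* and *petD* were above 0 (median 0.28), with *psbB* and *petD* called. All 4 of *atpI*, *atpH*, *atpF* and *atpA* were above 0 (median 0.52), with *atpI* and *atpH* called. All 4 of *psbE*, *psbF*, *psbL* and *psbJ* were below 0 (median -0.25), with none called. In the unit of 7 genes that runs across *ndhH*, *ndhA*, *ndhI*, *ndhG*, *ndhE*, *psaC* and *ndhD*, only *ndhG* was called, and 3 values were below 0.

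A 24 h rhythm, fitted as a cosine and a sine of the hour over all 8 arrays, was called for 3 of 44 members, while 40.7% of all probe sets were called. These were *ndhG*, whose amplitude was 0.67 ± 0.125 with its peak at 11.1 ± 0.891 h (adjusted p = 0.0052), *petG* (0.41 ± 0.11, peak at 9.57 ± 1.11 h, adjusted p = 0.031) and *petN* (0.55 ± 0.148, peak at 11.8 ± 1.33 h, adjusted p = 0.0352). The *petG* gene, of a small cytochrome b6f subunit, had 149.9 and 103.4 on the B and A arrays of 00h, 159.2 at 04h, 198.9 at 08h, 224.0 and 183.3 on the B and A arrays of 12h, 152.4 at 16h and 109.5 at 20h. Its 3 highest arrays were those of 12h and 08h. The median amplitude was 0.20, against 0.36 over all probe sets. Amplitudes above the 0.55 of *petN* without a call were those of *rbcL* (0.80 ± 0.267, adjusted p = 0.0775), *petD* (0.70 ± 0.215, adjusted p = 0.0531), *psbD* (0.63 ± 0.328, adjusted p = 0.291) and *psbB* (0.60 ± 0.238, adjusted p = 0.147). On the 6 A arrays alone no member was called. There 3 had an unadjusted limma p under 0.05, and the share of all probe sets at that threshold is not given. On the 6 arrays with low hybridisation controls alone only *ndhG* was called.

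**Figure D5:**
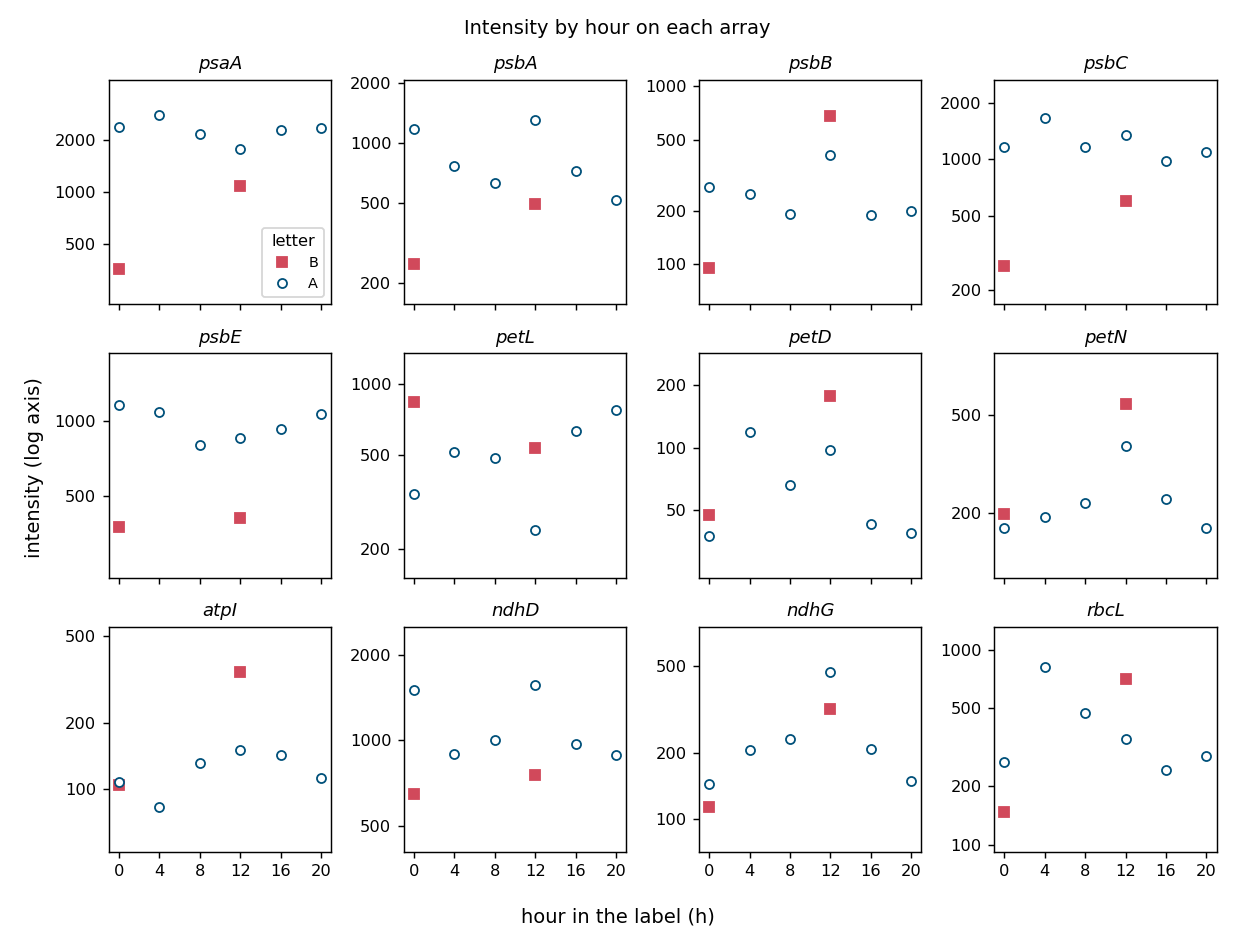
Each panel is a gene, with the hour of the label on the horizontal axis and the intensity on a logarithmic vertical axis; red squares are B arrays and open blue circles A arrays. In *psaA*, *psbA*, *psbC* and *psbE* the 2 squares lie below all circles, while *ndhG* and *petN* are highest at 12h with both letters.

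The steps between neighbouring hours compare at least 1 hour that has a single array, whose spread is assumed to be that of 00h and 12h. Between 00h and 04h, *rbcL* and *petD* were higher at 04h and no other member was called, against 27.0% of all probe sets, and 15.6% in the higher direction. The *rbcL* intensity was 813.1 at 04h, against 147.8 on 00h B and 266.0 on 00h A, a change of 1.95 ± 0.423 (adjusted p = 0.00747), and later 473.5 at 08h, 242.1 at 16h and 284.2 at 20h. It was thus highest at 04h, with 12h B next. The *petD* intensity of 118.7 at 04h gave 1.20 ± 0.351 (adjusted p = 0.0293). Both calls were lost without the filter on low intensities, and that of *petD* with every array scaled to the same median. Changes of *psaA* (1.57 ± 0.82, adjusted p = 0.187) and *psbC* (1.53 ± 0.698, adjusted p = 0.135) were not called. Of the 15 *psb* genes 14 were above 0, *psbI* being below at -0.29. The 00h level averages 00h B with 00h A, while 04h has an A array alone. Against 00h A alone, *psbA* (773.5, against 1183.6), *psbB*, *psbE*, *psbF*, *psbI*, *psbJ*, *psbM* and *psbN* were lower at 04h. The other *psb* genes were higher there. Lowest of all members in the fit were *ndhC* at -0.42 and *atpI* at -0.31, and neither they nor any *psb* gene was called. Without 00h A, so that only 00h B stood for that hour, the change was 2.34 for *rbcL* and 1.08 for *petD*. Without 00h B it was 1.56 for *rbcL* and 1.33 for *petD*. With the arrays of high hybridisation controls as a block 17 members were called (*petL* lower and the others higher), against 34.2% of all probe sets.

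Between 12h and 16h only *petD* was called, lower at 16h with 43.1, against 178.4 on 12h B and 97.9 on 12h A (-1.33 ± 0.351, adjusted p = 0.0372), while 11.2% of all probe sets were called, 4.43% of all in the lower direction. This call was lost without 12h B, with a pseudocount of 1 and without the filter on low intensities. The *psbB* gene had 188.3 at 16h, below both 12h arrays (-1.41 ± 0.485, adjusted p = 0.0956), and *ndhB* had 43.7, also below both (-1.02 ± 0.31, adjusted p = 0.0624). The highest changes were those of *psbK*, of a small photosystem II subunit (0.95 ± 0.495, adjusted p = 0.262), *ndhH* of the NDH complex (0.89 ± 0.288, adjusted p = 0.078) and *petL* (0.79 ± 0.521, adjusted p = 0.385). With the letter as a block, 13 members were called at this step, *ndhA* and *petL* higher and the others lower. The share of all probe sets under that block was not computed. At the other 4 steps no member was called, against 1.03% of all probe sets between 04h and 08h, 0.0879% between 08h and 12h, 0.00733% between 16h and 20h and 0.139% between 20h and 00h. At an unadjusted limma p under 0.05 those 4 steps held 0, 7, 0 and 4 members. The share of all probe sets at that unadjusted threshold is not given, so these counts have no background.

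Across arrays, the 44 genes ordered the samples differently from the whole table. Their log2 intensities correlated at 0.9123 between 12h B and 12h A and at 0.9047 between 00h B and 00h A, beside 0.9625 and 0.9672 over all 13647 probe sets. Between arrays of different hours they correlated at 0.9936 for 20h with 16h, 0.989 for 16h with 08h and 0.9659 for 12h A with 00h A, beside 0.9635, 0.8499 and 0.7711 over all probe sets. The pairs of different hours ran both ways in these genes: the B arrays of 12h and 00h correlated at 0.8855 with each other, and the lowest value was 0.8606, for 20h with 12h B, beside 0.7241 and 0.7676 over all probe sets. Those below both same-hour pairs all held a B array. These correlations are across genes, which are not independent, and share each probe set's own brightness. The mean of the 44 genes, each centred on its own mean, was 0.04 on 12h B, against 0.13 on 12h A, and -0.44 on 00h B, against 0.08 on 00h A, and it was 0.18 at 04h and between -0.02 and 0.04 at 08h, 16h and 20h. The 00h B array was the lowest of the 8 for 22 members, against 19.3% of all probe sets. Its mean was -0.66 over the photosystem II genes, -0.63 over photosystem I, -0.47 over the ATP synthase, -0.20 over NDH and -0.01 over cytochrome b6f.

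The 32 other named plastid genes, mostly of ribosomal proteins and the plastid RNA polymerase, gave 3 calls on the letter: *rpoC2* was higher in B (1.5 ± 0.184, adjusted p = 0.00224), and *rpl14* (-1.11 ± 0.178, adjusted p = 0.00887) and *ycf4* (-0.79 ± 0.167, adjusted p = 0.0387) were lower. Their median difference was -0.04, beside -0.33 in the photosynthesis genes, and this contrast was not tested. At 12h, 4 of them were higher than at 00h (*rpoB*, *rps14*, *ycf2* and *rps16*) and none was lower, with 1.97 ± 0.265 for *rpoB*, of a polymerase subunit (adjusted p = 0.000258). Nuclear genes of the same complexes were thinly covered. Of those listed, 9 were named and tested, of which *NdhL* was lower at 12h (-0.73, adjusted p = 0.0212), and *PSAE-1* (-0.87, adjusted p = 0.0199) was lower in B, as was *ATPC1* (-0.94, adjusted p = 0.0131). The median difference between letters over these 9 was -0.57, with 6 below 0 and 3 above 0, beside -0.33 in the plastid-encoded photosynthesis genes. That contrast was not tested either.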

How the data were processed

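Total RNA of pooled rosettes was labelled and hybridised to 8 one-colour Affymetrix arrays. The deposited values are linear intensities made by the authors with MAS5 per the submitters' processing notes (no version given). From them log2(intensity + 16) was computed. The 64 control probe sets and the 40% of the others with the lowest mean were left out, which left 13647 of 22810. Probe sets were named from the platform's gene table, updated through a RefSeq table of assembly TAIR10.1 used for names only: 13513 had 1 gene, 503 several and 8730 none. Only those with 1 gene symbol were used as named genes, while the tests covered all probe sets that passed the filter, named or not.

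Tests used limma (version 3.58.1, in R version 4.3.3), with its eBayes step set to follow an intensity trend, over all 13647 probe sets, with Benjamini-Hochberg adjustment. The hour was a factor for 12h against 00h and for the 6 steps, with 2 residual and 8.2 prior degrees of freedom. The hours without a second array took their spread from 00h and 12h. The letter was fitted beside the hour, and the 24 h rhythm as an F test of cosine and sine. The pipeline was run on simulated data with independent noise and planted changes. That simulation held no array-wide differences tied to brightness or hybridisation controls, so it does not measure errors on these arrays. The number of arrays limits the precision.

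The members and gene lists were chosen with earlier results of these data known. Values are printed for the genes of each complex with the largest and smallest change between 12h and 00h and the largest amplitude, the 4 highest and 4 lowest differences between letters, the 3 highest and 3 lowest changes at the steps after 00h and 12h, and a core gene of each complex. Up to 4 other genes per list are named by lowest p. The 14 genes with both B arrays below all A arrays, and the other called members, were named after their values were seen. No sequences are shown. Alternatives changed the pseudocount, filter, scaling, trend, block and arrays used.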

Additional observations from a re-analysis of the deposited data

Results flagged for a closer look

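In 3 genes the B array lay above the A array at 12h and below it at 00h by at least 0.5 log2 units each time, so that the 2 hours moved in opposite directions. The difference B minus A of *psaC* was 1.02 at 12h and -0.64 at 00h. For *psbB* it was 0.71 at 12h and -1.37 at 00h. That of *rbcL* was 0.99 at 12h and -0.78 at 00h. With 1 array per letter and hour, these opposite directions were not tested.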

How the results depend on the processing

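The counts of called members changed with the processing as follows, against 7 at 12h versus 00h, 2 at the step 00h to 04h, 0 at 08h to 12h, 1 at 12h to 16h, 0 at 20h to 00h, 3 for the rhythm and 11 for B versus A. With the letter as a replicate block they were 16 at 12h versus 00h (13 higher, and *petL*, *psbI* and *psbL*, 3 in all, lower), 7 at 00h to 04h, 2 at 08h to 12h, 13 at 12h to 16h, 1 at 20h to 00h and 5 for the rhythm. The share of all probe sets called with this block was not computed. Without the block that share was 40.5% at 12h versus 00h and 27.0% at 00h to 04h. The arrays of a block share only a letter, which the labels do not tie to plants or days. The differences B minus A at 12h and 00h correlated at 0.545 over the 44 members and at 0.297 over all probe sets. With the arrays of high hybridisation controls as a block, an alternative chosen after seeing the data, they were 16, 17, 3, 9 and 4 for the comparison 12h versus 00h and the steps 00h to 04h, 08h to 12h, 12h to 16h and 20h to 00h, and 1 for the rhythm on the 6 other arrays alone, also chosen after seeing the data. For 12h versus 00h that block gives the same fit as the letter block, so its 16 repeats the other count. Without the filter the counts were 3 at 12h versus 00h and 0 at 00h to 04h (2 at an unadjusted limma p under 0.05), at 12h to 16h (5 unadjusted) and for B versus A. Leaving out the lowest 60% gave 3 at 12h to 16h and 20 for B versus A. Pseudocount 1 gave 0 at 12h to 16h (6 unadjusted) and 6 for B versus A. For the unadjusted counts the share of all probe sets is not given. One median for every array gave 1 at 00h to 04h and 1 for the rhythm. Quantile normalization gave 5 at 00h to 04h, 4 at 12h to 16h and 7 for B versus A, and turned *atpE* to 0.08. Without an intensity trend B versus A gave 5, and beside cosine and sine 0. The rhythm gave 0 on the A arrays alone. Leaving out 1 array at a time gave 5 to 13 at 12h versus 00h, 2 to 11 at 00h to 04h, 0 to 1 at 08h to 12h, 1 to 9 at 12h to 16h, 0 to 3 at 20h to 00h and 1 to 4 for the rhythm. The steps 04h to 08h and 16h to 20h stayed at 0 in every setting run. The alternative of averaging the probe sets of a gene was not run, since every member has 1. Causes were not tested, beyond fewer arrays or more probe sets tested by construction.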
